A study of Homo sapiens with 3 samples.

Results

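The 14-3-3 genes YWHAB, YWHAE, YWHAG, YWHAH, YWHAQ and YWHAZ were followed through 3 lists of ribosome footprint peaks. They encode the beta, epsilon, gamma, eta, theta and zeta isoforms of a family of small acidic adaptor proteins. The members were taken by name, and a peak was given to the gene of the RefSeq transcript named in its annotation, or to the named nearest gene where that transcript could not be matched. The 6 genes held 185 of 46819 peaks and were 6 of 3798 genes with a peak in any list. In GRCh37 the canonical transcripts lie on chromosome 20 from 43514346 to 43537173 (YWHAB, plus strand, 6 exons), chromosome 17 from 1247569 to 1303516 (YWHAE, minus, 6 exons) and chromosome 7 from 75956116 to 75988308 (YWHAG, minus, 2 exons). The others lie on chromosome 22 from 32340521 to 32353590 (YWHAH, plus, 2 exons), chromosome 2 from 9724096 to 9771126 (YWHAQ, minus, 6 exons) and chromosome 8 from 101928751 to 101964248 (YWHAZ, minus, 6 exons).

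Ribosome footprints are the stretches of mRNA that a ribosome shields from nuclease, and here they were sequenced from HEK293T, a cell line of human embryonic kidney origin. Cells were transfected for 24 h with empty pCDNA3.1 vector, with FLAG-tagged wild-type DDX3X, or with FLAG-tagged DDX3X carrying G325E, a medulloblastoma substitution in this RNA helicase. Expression was transient, and removal of the cells' own DDX3X is described for none of the 3 groups. According to the labels all cells were given 2 µg/ml harringtonine (a drug that traps initiating ribosomes) for 90 s and then 100 µg/ml cycloheximide, which freezes elongation. The study's methods name only cycloheximide. Each group was 1 library, so no difference below can be set against a spread between cultures and no test was made.

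The lists held 11219 peaks in vector, 19920 in wild-type DDX3X and 15680 in DDX3X G325E. They give positions without heights or read counts. By the study's methods the G325E library had the fewest mapped reads after removal of duplicates and wild type the most, and a peak had to reach 1 fixed coverage in every library. A position without a peak therefore lay below that coverage, unless its entry was dropped later, and a gene without a peak may still have had reads. The part of depth in the differences between lists was not tested, and scaling to the length of each list does not correct for it. Less mRNA of a gene and fewer ribosomes per mRNA cannot be told apart in these lists. Peaks carry running numbers, of which 14.8% are skipped in the vector list, 13.5% in wild type and none in G325E, and what the skipped entries held is unknown. DDX3X itself had 0 peaks with vector, 32 with wild type and 9 with G325E. The labels call the cells neuronal. Of 14 neuronal marker genes 3 (TUBB3, NEFL and NEFM) had peaks in every list and 11 had none, MAP2, RBFOX3 and SNAP25 among them. Of 8 epithelial or mesenchymal markers 4 had a peak in some list, at 1 with vector, 4 with wild type and 2 with G325E. Only VIM among them had peaks in every list.

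14-3-3 proteins work as dimers. Each dimer grips phosphorylated serine or threonine motifs in client proteins, and so holds kinases, phosphatases and transcription factors in a given shape or compartment. Well-known clients are RAF kinases, CDC25 phosphatases, BAD, FOXO factors and YAP1. The isoforms are among the most abundant soluble proteins of many cell types and are translated from separate mRNAs with very similar coding sequences.

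The coding sequences had 735 to 765 bases (245 to 255 codons), and translated proteins shared between 63.1% of residues (YWHAE with YWHAH) and 87.7% (YWHAB with YWHAZ) in pairwise alignment. YWHAE was the most distant member, with at most 67.3% identity to any other. Of 258 alignment columns 133 were identical in all 6. This likeness, and a set of 25 annotated 14-3-3 pseudogenes, limits where a short read can be placed. The share of coding bases at the centre of a 30-base window with no other exact copy in GRCh37 was 98.1% in YWHAG, 98% in YWHAH, 89.3% in YWHAB, 82.7% in YWHAQ, 49.4% in YWHAE and 7.62% in YWHAZ. Peaks were also few at the pseudogenes themselves, at 3 with vector, 2 with wild type and 0 with G325E.

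Coverage of the start codon differed between lists in YWHAB and YWHAQ. The 30 bases around the start codon are shown for 5 of the members, read from the GRCh37 mRNA, with the start codon in capitals.
YWHAB: cctcccacgggaATGacaatggataaaagt
YWHAE: gccgctgccgctATGgatgatcgagaggat
YWHAG: agccccgcgaagATGgtggaccgcgagcaa
YWHAH: gccgcgagcgacATGggggaccgggagcag
YWHAQ: cccgcgcccgccATGgagaagactgagctg
The YWHAB window crosses the first splice junction, from 43514519 to 43514527 and on from 43530172 to 43530192 on chromosome 20 (plus strand). The others lie within an exon, at chr17:1303387-1303416 (minus strand, YWHAE), chr7:75988108-75988137 (minus strand, YWHAG), chr22:32340708-32340737 (plus strand, YWHAH) and chr2:9770564-9770593 (minus strand, YWHAQ). None of the 5 windows has another exact copy in the genome. Their G and C content is 46.7% in YWHAB, 60% in YWHAE, 66.7% in YWHAG, 76.7% in YWHAH and 70% in YWHAQ.

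Summed over the family, there were 60 peaks with vector, 81 with wild type and 44 with G325E. These are 5.35, 4.07 and 2.81 of every 1000 peaks listed. After scaling to the number of peaks in each list, the G325E number was 0.69 times that of wild type (95% exact conditional interval 0.467 to 1.01) and 0.525 times that of vector (0.347 to 0.787). Wild type stood at 0.76 times vector (0.538 to 1.08). Intervals treat peaks as independent counts and cover counting error only. The median gene with a peak in both lists was at 1.27 for G325E against wild type (1857 genes), 0.716 against vector (1495 genes) and 0.657 for wild type against vector (2002 genes). The values 1.27 and 0.716 are those of a gene with equal unscaled numbers of peaks in both lists. They follow from the list lengths and show no rise or fall of the typical gene. The median member was at 0.635, 0.421 and 0.689 in the order of these comparisons. By the medians, members and genes at large differed most in G325E against wild type and hardly at all in wild type against vector. Coding bases under peaks gave another order. Of every 1000 such bases over all genes, the family held 5.65 with vector, 3.51 with wild type and 3.26 with G325E. By that measure its share fell most between vector and wild type.

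**Figure D1:**
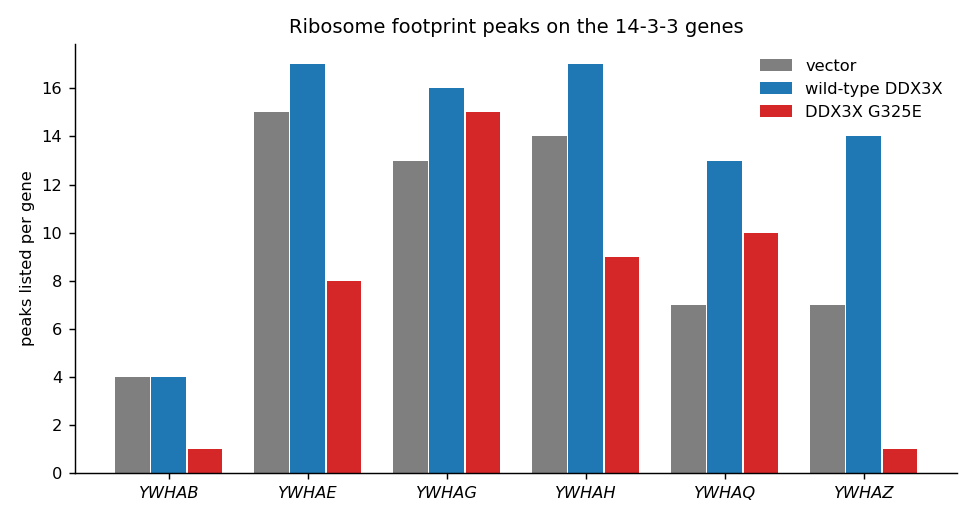
Number of peaks listed for each 14-3-3 gene (y axis) in vector, wild-type DDX3X and DDX3X G325E (bars, 1 library each, not scaled for list length). YWHAB and YWHAZ have 1 peak each in G325E, whereas YWHAG has 13, 16 and 15.

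YWHAB had 4 peaks with vector, 4 with wild type and 1 with G325E. YWHAE, the most distant isoform, had 15, 17 and 8. YWHAZ, the zeta isoform, had 7, 14 and 1. In all of these genes G325E had the lowest number of the 3 lists, before and after scaling. YWHAH had 14, 17 and 9 peaks in the same order, of which 6, 3 and 8 lay on the strand opposite to the gene. Only 1 G325E peak on YWHAH was therefore on the gene's own strand, and with gene-strand peaks alone YWHAH stood at 0.0994 times wild type and 0.0952 times vector after scaling. These 2 ratios rest on the strand given in the file, which differed between lists at some intron sites of YWHAH. For example, a peak was on the plus strand in wild type (32341028 to 32341075). Its counterparts were on the minus strand in vector (32341026 to 32341074) and G325E (32341042 to 32341075). By the nearest gene column alone the YWHAH ratio of G325E to wild type was 1.52, against 0.673 by transcript. YWHAG had 13, 16 and 15 peaks and YWHAQ had 7, 13 and 10, so that neither had its lowest number in G325E.

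Shares of genes in this paragraph are over genes with a peak in both lists of the pair. Genes with no peak in either of the lists compared are left out. Against wild type, 2 of 6 members had at least 2-fold fewer scaled peaks in G325E, and 10.7% of 1857 genes did. The members were YWHAB at 0.318 (0.00645 to 3.21) and YWHAZ at 0.0907 (0.00215 to 0.596). No member had at least 2-fold more, against 20.2% of genes. Against vector 4 of 6 members had at least 2-fold fewer, against 21.2% of genes: YWHAB at 0.179 (0.00363 to 1.81), YWHAE at 0.382 (0.14 to 0.959), YWHAH at 0.46 (0.176 to 1.14) and YWHAZ at 0.102 (0.00227 to 0.796). None had at least 2-fold more, which 11.2% of genes did. For wild type against vector 0 of 6 members passed the limit, where 5.19% of genes had at least 2-fold more and 21% at least 2-fold fewer. The YWHAB interval spans 1 in each pair. The 2 comparisons with G325E share its library, and those with vector share the vector library.

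**Figure D2:**
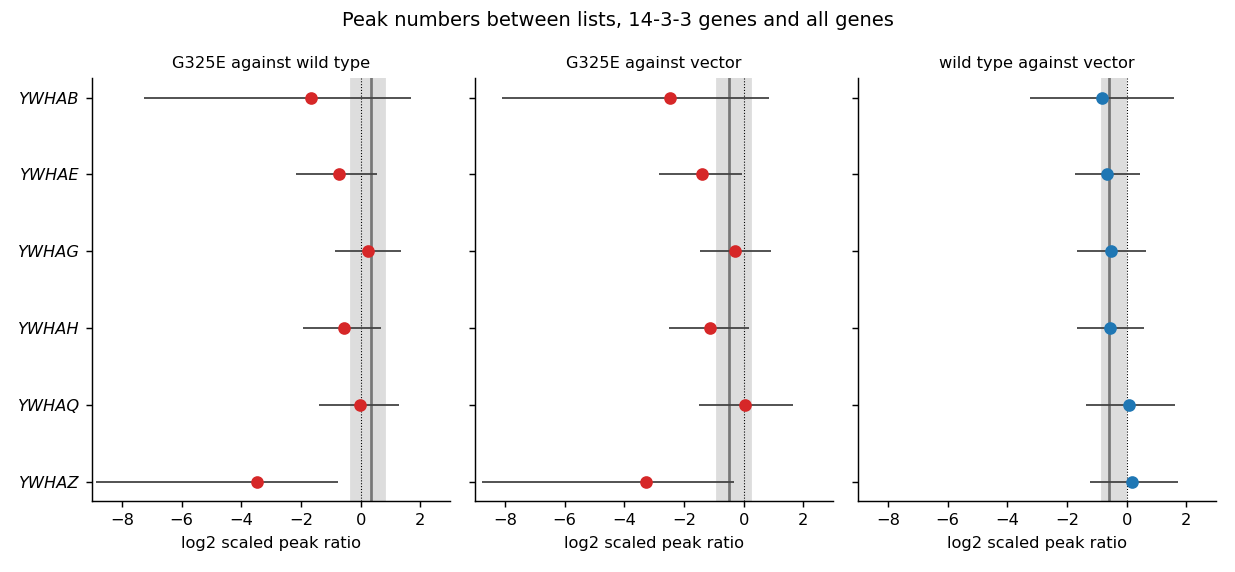
Scaled peak ratio of each 14-3-3 gene on a log2 axis, in 3 comparisons (points, with 95% exact conditional intervals as lines). The grey band spans the interquartile range of all genes with a peak in both lists of the pair, and the grey line marks their median. YWHAZ lies at −3.46 against wild type and −3.29 against vector.

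The low YWHAZ number in G325E stood against different kinds of peak in the 2 other lists. In vector it had 4 peaks in the exon class and 3 in the promoter-TSS class (HOMER's class for peaks near a transcription start site). In wild type it had 1 exon-class peak, 11 in the promoter-TSS class and 2 in an intron. G325E had 1 exon-class peak only. The promoter-TSS peaks of vector, and most of those of wild type, lay off the canonical mRNA. In the last exon, over the stop codon, the 3 lists held almost the same peak, with 66, 66 and 64 bases (chromosome 8, 101932917 to 101932979 in G325E, minus strand). Over coding bases, YWHAZ therefore stood as high in G325E as in wild type (56 and 57 bases), and it was vector that differed, with 216. Over peaks of the 5′-UTR, exon and 3′-UTR classes alone, the scaled ratio of G325E to wild type was 1.64 in YWHAZ. Vector peaks in exons 4 and 5 (codons 141 to 222) had no counterpart in either DDX3X list. Exons 2 and 3, where the coding sequence of YWHAZ begins, had no peak in any list. Only 7.62% of YWHAZ coding bases had a unique 30-base window, and the part of read placement in its missing peaks was not tested.

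Coverage of the coding sequence does not depend on how peaks were split. Of 4452 coding bases in the 6 canonical transcripts, 1881 lay under a gene-strand peak with vector (42.3%), 2001 with wild type (44.9%) and 1188 with G325E (26.7%). The G325E number was 59.4% of that of wild type, close to the 63.8% over all genes. It was 63.2% of that of vector, against 109% over all genes. Among the 3029 genes with a coding peak in any list, the median gene had 3.07%, 11.8% and 4.06% of its coding sequence covered, with upper quartiles of 19.8%, 28.8% and 17.6%. Members above that upper quartile were 5 of 6 with vector (not YWHAQ), 5 of 6 with wild type (not YWHAZ) and 3 of 6 with G325E (YWHAE, YWHAG and YWHAQ).

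**Figure D3:**
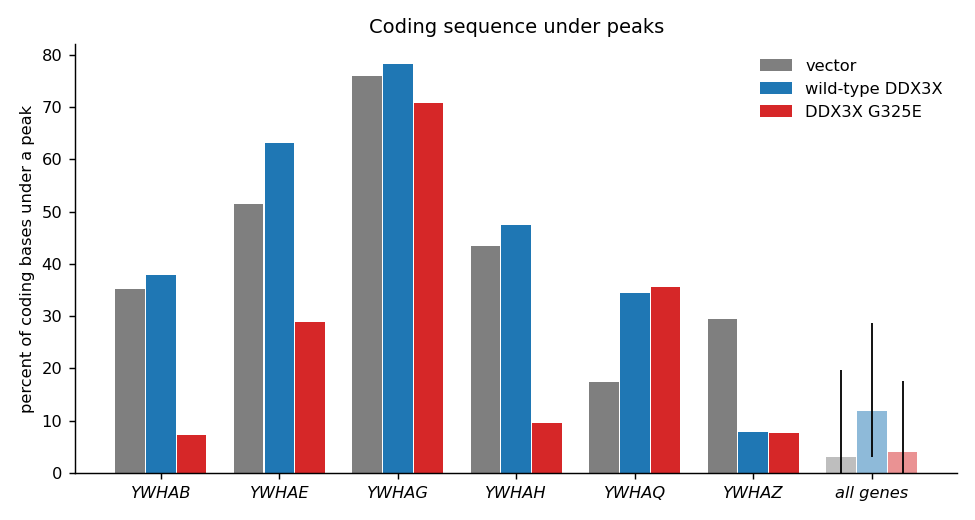
Percent of coding bases under a gene-strand peak for each 14-3-3 gene in the 3 lists (bars), with the median of 3029 genes at the right and lines from their lower to their upper quartile. YWHAG stays above 70% in each list, whereas YWHAB and YWHAH are below 10% in G325E.

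The members fell into different patterns. YWHAG was the best covered, at 76% with vector, 78.1% with wild type and 70.8% with G325E. YWHAE had 51.4%, 63.1% and 28.9%. YWHAB had 35.2%, 37.8% and 7.32%, and YWHAH had 43.5%, 47.4% and 9.62%. YWHAQ ran the other way from vector, with 17.4%, 34.4% and 35.5%. YWHAZ had 29.4%, 7.76% and 7.62%. Coding coverage was thus lowest in G325E in 5 members, by a small margin in YWHAG and by a single base against wild type in YWHAZ, and highest in G325E in YWHAQ alone.

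Of the 1664 coding bases that vector and wild type both covered, 1020 (61.3%) were covered in G325E too. Over all genes this held for 58.3% of 292501 such bases, close to the family's share. By gene the share was 20.9% of 258 bases in YWHAB, 23.6% of 301 in YWHAH, 58.5% of 378 in YWHAE, 89.1% of 128 in YWHAQ, 92.8% of 543 in YWHAG and 100% of 56 in YWHAZ. Among the 1000 genes with at least 100 such bases the quartiles were 0%, 70.9% and 93%, so the members spread over much of the range that genes at large took. Of the 1188 G325E coding bases 156 (13.1%) lay under no vector or wild-type peak, against 36.1% over all genes. Of those 156 bases YWHAQ held 145 and YWHAG 11, and without YWHAQ the share was 1.19%. Most of the YWHAQ bases lay where the vector and wild-type lists skip a peak number, and the share over all genes is open to the same skipping.

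**Figure D4:**
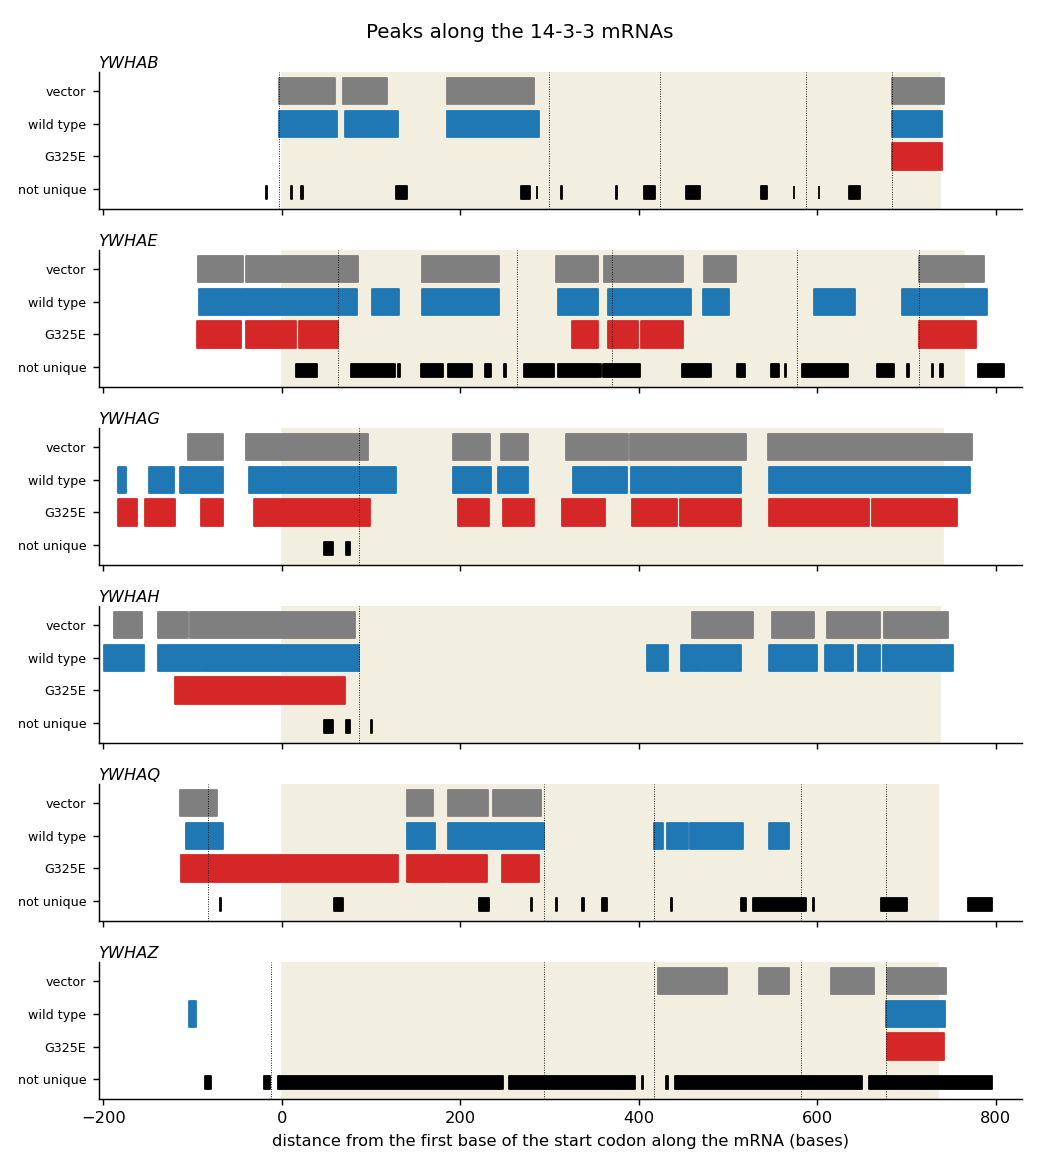
Bases under gene-strand peaks along each 14-3-3 mRNA, as distance in bases from the start codon, in vector (grey), wild-type DDX3X (blue) and DDX3X G325E (red). Shading marks the coding sequence, dotted lines mark exon junctions and black bars mark bases whose 30-base window has another copy in the genome. The 5′ parts of YWHAE, YWHAG and YWHAH are under peaks in all lists, that of YWHAB has no peak in G325E and that of YWHAQ has more.

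YWHAB differed at its 5′ end. Vector and wild type each had 3 peaks in exon 2, the first of which began at the first base of that exon and took in the start codon shown above. They reached codon 95 in vector and codon 97 in wild type. G325E had 0 peaks there and shared the peak over the stop codon in the last exon (chromosome 20, 43535024 to 43535078, plus strand, 56 bases in wild type and G325E, 59 in vector). Exons 3, 4 and 5 had no peak in any list. Vector and wild type skip 0 peak numbers at this locus. The nearest gene column named PABPC1L for all 9 YWHAB peaks, which is why they were assigned through the RefSeq transcript.

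YWHAH had peaks on its 5′ part in every list and on its 3′ part in vector and wild type only. In exon 1 a peak covered the start codon in each list, of 185 bases with vector, 176 with wild type and 190 with G325E (chromosome 22, 32340602 to 32340790, plus strand). In exon 2, where the rest of the protein is encoded, vector covered codons 154 to 246 in 4 gene-strand peaks and wild type covered codons 137 to 246 in 7. G325E had 0 peaks in exon 2, and its last covered codon was 24. The YWHAH stop codon was therefore covered in vector and wild type and not in G325E. Over the first intron and its edges G325E had 7 peaks on the opposite strand, and whether they belong to an antisense transcript was not tested. The wild-type list places peaks that overlap some of these on the gene's strand, and some lie where the vector list skips a peak number.

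YWHAE exon 1 was covered almost whole in every list, with 100% of its coding bases covered in vector and wild type and 95.3% in G325E. Exon 2 had 54% of its coding bases covered in vector, 68.5% in wild type and none in G325E. Exons 3 and 4 had 31.8% and 36.7% in G325E against 46.7% and 56.5% in wild type. Exon 5 was covered in wild type only (47.4%), and the coding part of exon 6, with the stop codon, was covered in full in all lists. The intron peaks of YWHAE, 5 in vector and 4 in wild type, were absent from G325E. The file places the intron peak from 1264323 to 1264342 on the minus strand in vector and on the plus strand in wild type.

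In YWHAG the peaks of the 3 lists lay in much the same places. Its start codon lay under a peak of 127 bases with vector, 123 with wild type and 118 with G325E, and its stop codon under peaks of 229, 225 and 95 bases. On the mRNA, a G325E peak of 112 bases lay just upstream of the peak over the stop codon, with a gap of 3 bases between them. YWHAG differed more in its 5′-UTR, where 43.2% of bases were covered with vector, 66.1% with wild type and 60.7% with G325E, and in promoter-TSS peaks, of which there were 1, 2 and 5. It is also the member with the highest coding G and C content (57.6%).

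YWHAQ was the only member whose start codon was covered in G325E alone. Vector and wild type left the first 47 codons uncovered and began at codon 48. G325E had a peak of 213 bases (chromosome 2, 9770452 to 9770663, minus strand) that ran from the 5′-UTR across the start codon to codon 44. The 5′-UTR of YWHAQ was covered over 80.6% of its bases in G325E and 30.2% in each of the other lists. This difference cannot be told apart from the skipped entries. Of the 210 YWHAQ mRNA bases found only in G325E, 196 lay in stretches where the vector list and the wild-type list each skip a peak number. Without such stretches the scaled YWHAQ ratio of G325E to wild type was 0.346, against 0.977 with them. In the other direction, exon 4 of YWHAQ had 5 peaks in wild type (codons 140 to 190, 4 of them on the gene's strand) and 0 in vector and G325E. The YWHAQ stop codon was covered in no list.

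The exon layout of YWHAB, YWHAQ and YWHAZ is the same, with coding exons of 124, 164 and 96 bases in the middle of each gene. The 124-base exon had 0% covered in each of these genes and each list. The 164-base exon was covered only in YWHAQ in wild type (70.7%) and in YWHAZ in vector (68.3%). The 96-base exon was covered only in YWHAZ in vector (50%).

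Peaks were then placed on the protein alignment. In vector and wild type 5 of 6 members were covered at some columns of the C-terminal end (between 236 and 258), and in G325E at most 4 were covered at any column. Dividing the alignment into 5 parts, the first part had 43.1% of residues covered with vector, 51.8% with wild type and 41.8% with G325E. The second had 42.2%, 44.4% and 21.9%, the third 34.2%, 36.6% and 25.5%, and the fourth 41.3%, 42% and 13.5%. The last part had 56.9%, 57.2% and 35.7%. The first part rested on YWHAQ, whose 5′ peak in G325E lies where the other lists skip peak numbers. Without YWHAQ that part had 50.8%, 61.2% and 31.6% covered, and the third, with 41%, 40.6% and 30.5%, was the one where G325E came nearest to vector. Without YWHAQ the second part had 34%, 35.5% and 9.38%, and the fourth 49.6%, 37.7% and 16.2%. In percentage points G325E was furthest from vector in the fourth part, with and without YWHAQ. Without YWHAQ it was lowest as a share of the vector value in the second part. Its gap to wild type in percentage points was then widest in the first part.

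**Figure D5:**
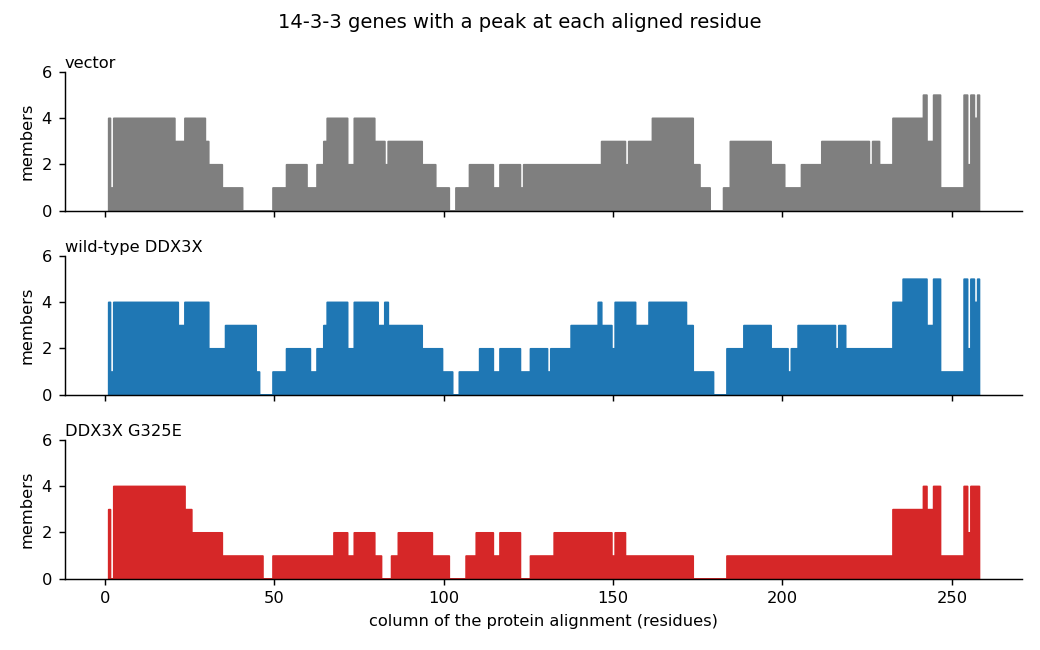
Number of the 6 members with a peak at each column of their protein alignment (x axis, residues), in vector, wild-type DDX3X and DDX3X G325E. Counts stay at 4 near the N terminus in all lists, reach 5 at the C terminus in vector and wild type, and lie at 2 or fewer across the middle in G325E.

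Start codons were under a gene-strand peak in 4 of 6 members in each list. In vector and wild type these were YWHAB, YWHAE, YWHAG and YWHAH, and in G325E YWHAQ took the place of YWHAB. Among genes with a coding peak, the start codon was covered in 40.3% with vector, 38.7% with wild type and 59.2% with G325E (95% Wilson intervals 38 to 42.7, 36.8 to 40.6 and 56.9 to 61.4). Stop codons were under a peak in 5 members with vector, 5 with wild type and 4 with G325E, where genes at large had 17.4%, 17.4% and 9.88%. YWHAH was the member whose stop codon peak was missing in G325E. The 30 bases over the stop codons (in capitals) of the same 5 members follow, since a peak over the last codons was found in most of the family.
YWHAB: gacgctggggagggagagaacTAAtgtttc
YWHAE: gacgtggaagacgaaaatcagTGAgacata
YWHAG: gatggcggcgaaggcaacaatTAAggcccc
YWHAH: gaagaagcaggagaaggcaacTGAagatcc
YWHAQ: gcggcagaaggggctgaaaacTAAatccat
They lie at chr20:43535056-43535085 (YWHAB, plus strand), chr17:1248735-1248764 (YWHAE, minus), chr7:75958888-75958917 (YWHAG, minus), chr22:32352756-32352785 (YWHAH, plus) and chr2:9725409-9725438 (YWHAQ, minus). G325E peaks covered 23 of the 30 bases in YWHAB, 30 in YWHAE and YWHAG, and 0 in YWHAH and YWHAQ. Wild-type peaks covered 23, 30, 30, 30 and 0 in the order of the lines.

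Of the family's covered coding bases, 46.6% lay in the first 50% of the coding sequence with vector, 47.9% with wild type and 55.1% with G325E. Over all genes these shares were 49.4%, 48.2% and 63.4%. The higher family share in G325E rested on YWHAQ, since without that gene the shares were 42.7%, 47% and 42.5%. By HOMER's classes, 5′-UTR peaks were 4 of 37 in vector (10.8%, 95% Wilson interval 4.29 to 24.7), 4 of 45 in wild type (8.89%, 3.51 to 20.7) and 2 of 23 in G325E (8.7%, 2.42 to 26.8). All genes had 9.07%, 8.85% and 19.2%. The higher G325E share of genes at large lies inside the family's interval, so a difference from it was not detectable with 23 peaks. Placed by their midpoints on the canonical transcripts, 5′-UTR peaks were 17.5%, 16.3% and 25%, which turned G325E from the lowest list to the highest.

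The G and C content of the sequence moved with these differences. Coding bases of the family in all 3 lists were 59.4% G or C, those of vector and wild type only 49.2%, those of G325E only 62.2% (mostly YWHAQ), and those never covered 43.6%. The G325E value rests on YWHAQ, most of whose bases lay where the vector and wild-type lists skip a peak number. The 11 YWHAG bases of G325E only were 45.5% G or C, below the other classes of that gene. The order of the family held over all genes too, with 64.2%, 54.6%, 74.8% and 52.2%. Coding G and C content was in the lowest quartile of genes in YWHAB (45.7%), YWHAE (45.1%) and YWHAZ (43.5%), in the second in YWHAH (51.9%) and YWHAQ (50.1%), and in the third in YWHAG (57.6%). The part of base composition in the differences between lists was not tested. The windows below are examples, the central 30 bases of the longest coding run in all lists (shared) and of the longest run of vector and wild type that G325E lacked (absent), to show sequence of either kind.
YWHAB shared: gaaaaccagggagacgaaggagacgctggg
YWHAE absent: atcagcagcattgaacagaaagaagaaaac
YWHAG shared: gccaagaccgcgttcgacgacgccatcgcc
YWHAH shared: gctgcagcgggcgcggctggccgagcaggc
YWHAH absent: ccctctggacgagcgaccagcaggatgaag
The YWHAB window lies in exon 6 at chr20:43535035-43535064 (codons 233 to 242, 60% G or C). The YWHAE window is in exon 2 at chr17:1268201-1268230 (codons 63 to 72, 36.7%) and has 1 other exact copy in the genome. That of YWHAG is in exon 2 at chr7:75959020-75959049 (codons 197 to 206, 70%). In YWHAH the shared window is in exon 1 at chr22:32340740-32340769 (codons 7 to 17, 83.3%) and the absent one in exon 2 at chr22:32352730-32352759 (codons 231 to 241, 63.3%).

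Pooled over the family, sequence that occurs more than once in the genome was covered less than unique sequence in each list, at 33.1% against 46% in vector, 30.5% against 50.9% in wild type and 14.4% against 31.7% in G325E. Most of the repeated coding bases belong to YWHAZ and YWHAE. The order did not hold in each gene. Repeated bases were covered more than unique ones in YWHAG and YWHAH in every list, in YWHAE with wild type, and in YWHAZ with wild type and G325E. Few bases of YWHAG and YWHAH were repeated (98.1% and 98% unique) and few of YWHAZ were unique (7.62%), so these 3 genes say little on the order. On the unique sequence of the pooled family alone, G325E still had the lowest coverage of the 3 lists.

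Overlap between lists was counted from 1 shared base. Wild-type peaks were met by 75% of the vector peaks on 14-3-3 genes and by 75.3% of all vector peaks. In G325E 70.5% of the 44 family peaks overlapped a vector peak (55.8 to 81.8) and 65.9% a wild-type peak (51.1 to 78.1). Over all G325E peaks these shares were 34.5% and 45.9%. The latter include genes with no peak in the other list, whereas each member has a peak in every list. They also include stretches where vector and wild type skip peak numbers. A difference was also seen without G325E, as 59.3% of wild-type family peaks overlapped a vector peak, against 40.9% of all wild-type peaks. Of wild-type family peaks 33.3% overlapped a G325E peak, against 33.8% over all genes, and of vector family peaks 46.7%, against 46.6%.

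SFN, the remaining human 14-3-3 gene (the sigma isoform, typical of stratified epithelia), had 0 peaks in each list. Of 50 genes for 14-3-3 clients, 17 had a peak, 4 with vector, 12 with wild type and 9 with G325E. Over the whole lists, the genes with a peak numbered 2109, 3178 and 2426, in the same rank order as the clients. Among the clients KHSRP, which binds AU-rich elements in mRNAs, had the most, with 9, 18 and 21 peaks in vector, wild type and G325E. FOXO3, a transcription factor that 14-3-3 proteins keep in the cytoplasm, had 0, 9 and 9. HDAC4, a class IIa histone deacetylase, had 0, 0 and 18. CBL, a ubiquitin ligase, had 4, 3 and 6, and its scaled ratio of G325E to wild type was 2.54 (0.543 to 15.7). CDC25A, a cell cycle phosphatase, had 0, 6 and 5. The same total of 11 was reached by YAP1, a transcriptional coactivator of the Hippo pathway, with 0, 0 and 11, and by KRT18, a keratin of simple epithelia, with 0, 11 and 0. WEE1, the kinase that opposes CDC25 phosphatases, had 6, 3 and 0, and its ratio of wild type to vector was 0.282 (0.0456 to 1.32).

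Too few clients had peaks in both lists of a pair for a comparison of the group. Of 4 for G325E against wild type, 1 had at least 2-fold more and 0 fewer (median 1.38). Of 2 for G325E against vector, 0 passed the limit (median 1.37), and of 4 for wild type against vector, 2 had fewer and 0 more (median 0.493). These stand beside the shares given for the members above, over genes with a peak in both lists of a pair.

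The genes outside the family whose shares of scaled peaks over the 3 lists were nearest to the family's (43.8% vector, 33.3% wild type and 23% G325E) were RPL19P12, ATF4 and PEBP1, among 703 genes with at least 20 peaks in all. RPL19P12 is a ribosomal protein pseudogene and had 8, 11 and 6 peaks. ATF4, a stress-response transcription factor, had 7, 9 and 5, and so did PEBP1, an inhibitor of RAF signalling. The distances were 0.00603, 0.0132 and 0.0132 on shares that sum to 1, over 3 lists only.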

How the data were processed

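Per the labels and the study's methods, the authors trimmed reads with cutadapt, aligned them with BWA 0.5.5 to hg19 (NCBI Build 37) with RefSeq, junction and AceView sequences, removed duplicates, called peaks from Bambino coverage in each library and annotated them with HOMER (version not given in the sources used here). The deposited lists give positions (a unit of base coordinates), strand, class and nearest gene, with no coverage, counts or p-values. Deposited Start values fell 1 base after the first base of an exon in 5615 peaks and on it in 74, and End values fell on the last base in 5754, so spans were taken from Start minus 1 to End. Positions are printed as deposited.

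Peaks were placed on canonical transcripts of GENCODE release 44 lifted to GRCh37. Ratios were scaled by list totals. Proteins were aligned with mafft 7.526 from translated transcripts. Copies of 30-base windows were searched on both strands of GRCh37. Software was Python 3.11.15, numpy 2.4.6, pandas 2.3.3, scipy 1.17.1 and matplotlib 3.10.9, and functions were tested on simulated data. Coding G and C content was known for 84.1% of genes. Named genes were the 6 members, SFN, DDX3X, the 5 client genes with most peaks (ties by symbol, with YAP1 and KRT18, tied for the last place, named after their values were seen), any client at least 2-fold apart with at least 5 peaks in a list of the pair, and the 3 genes nearest in pattern. The members and lists were chosen with earlier results of these data known.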

Additional observations from a re-analysis of the deposited data

How the results depend on the processing

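Alternatives were other scalings, classes, strands and peak definitions, and leaving out YWHAZ, YWHAQ (coverage only) or the stretches with skipped peak numbers, these omissions chosen after seeing the data, as were coverage on either strand and with positions as listed. The family ratio stayed below 1 for G325E against wild type and against vector in every alternative. For wild type against vector it became 1.16 with scaling by the median gene and 1.1 within quartiles of coding G and C content. The number of members at least 2-fold apart, 2 for G325E against wild type, became 1 with the nearest gene column only, 1 with at least 5 peaks in one list, 1 without YWHAZ and 4 without the stretches with skipped numbers. It became 3 with median scaling, within G and C quartiles, with gene-strand peaks only and with a limit of 1.5-fold. Against vector the 4 became 2 with median scaling, 2 within G and C quartiles and 2 with the nearest gene column. The 4 became 3 with the 5′-UTR, exon and 3′-UTR classes only, with at least 5 peaks in one list and without YWHAZ. For wild type against vector the 0 became 1 with the 5′-UTR, exon and 3′-UTR classes only, 1 with the nearest gene column and 2 with a limit of 1.5-fold. The 5′-UTR share became 34% for vector, 37.9% for wild type and 34.4% for G325E with promoter-TSS peaks counted as 5′-UTR, and 17.5%, 16.3% and 25% on canonical transcripts, and coding coverage 46%, 50.9% and 31.7% on unique windows. Of 156 alternative member ratios 149 stayed within their intervals, 6 moved out and 1 reversed: YWHAZ in G325E against wild type was 1.64 over the 3 mRNA classes, which leave out its promoter-TSS peaks. Staying within a wide interval did not fix the direction, as 21 of the 156 lay on the other side of 1 from the value reported. Among them, in G325E against wild type, were YWHAH (1.52) and YWHAQ (1.59) by the nearest gene column, and against vector YWHAG with median scaling (1.15). The causes of the other changes were not tested. No paired analysis was possible because each group was 1 library and no result comes from a test. Since 1 coverage minimum was used for libraries of unequal depth, a missing peak limits the coverage in that library and not the ribosome occupancy relative to another.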

Other observations

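Peaks on the strand opposite to their 14-3-3 gene were 7 of 60 in vector (11.7%, 95% Wilson interval 5.77 to 22.2), 8 of 81 in wild type (9.88%, 5.09 to 18.3) and 11 of 44 in G325E (25%, 14.6 to 39.4). Of the 11 in G325E, 8 lay at YWHAH, 2 at YWHAQ and 1 at YWHAG. Intron peaks numbered 10, 15 and 11 in the same order. In G325E they were all at YWHAH and YWHAQ, whereas YWHAE held 5 of those in vector and YWHAH 6 of those in wild type. Peaks in stretches where a list skips peak numbers were 2, 4 and 6 at YWHAH in vector, wild type and G325E. At YWHAQ they were 3, 2 and 7. The opposite-strand and intron counts of G325E are therefore open to that skipping. Strand also differed between lists at some sites of YWHAE and YWHAH, and no share over all genes stands beside these counts. Peaks on the 25 pseudogenes were at YWHAZP2 on chromosome 2 (2 in vector, 2 in wild type) and at YWHAQP8 on chromosome X (1 in vector).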
